A study of Caenorhabditis elegans with 2 samples.

Results

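The genes described here are 10 autophagy genes of Caenorhabditis elegans, namely unc-51, bec-1, atg-9, atg-18, atg-7, atg-16.2, lgg-1, lgg-2, sqst-1 and epg-5, among 19973 nuclear protein-coding genes. They were chosen by name, with lgg-2 leading because of its strong NHR-48 regions in these same lists. A region was assigned to a gene when its summit, the base the authors gave as the highest point, lay in the gene body or within 2000 bp upstream of the gene's 5′ end. Because the genes were picked with their regions in view, the counts and signals below are descriptions and carry no test.

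The data are from chromatin immunoprecipitation with sequencing (ChIP-seq), which recovers the DNA a protein is bound to. There was 1 group with 2 biological replicates. Each was a population of whole hermaphrodites of strain OP518, of genotype unc-119(tm4063) III; wgIs518, collected as L4 larvae 48.5 h after synchronization of starved L1 larvae obtained by bleaching. The animals carry a stable transgene for NHR-48 whose C-terminal end is fused to GFP and FLAG, and the precipitation used an antibody against GFP. The transgenic line is a single donor line, and because whole animals were used the lists do not tell in which tissue NHR-48 was bound. No untagged or second condition was analysed here. NHR-48 is a nuclear hormone receptor of the family that also holds DAF-12 and NHR-8.

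Autophagy encloses cytoplasm in a double membrane, the autophagosome, and delivers it to lysosomes. The UNC-51 kinase complex starts the process, the BEC-1 lipid kinase complex marks the site, ATG-9 and ATG-18 help to supply membrane, and an enzyme chain that includes ATG-7 and ATG-16.2 attaches the ubiquitin-like proteins LGG-1 and LGG-2 to it. SQST-1 brings ubiquitin-marked cargo to these proteins, and EPG-5 tethers the finished autophagosome to late endosomes and lysosomes. In C. elegans the pathway removes paternal mitochondria from the embryo and is needed for the long life of several mutants.

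The IDR list of reproducible regions held 3361 regions, of which 3338 were nuclear, and its lowest signal was 95.4. These were the 3361 regions of highest signal in the pooled list of 30000 regions, with the same summits and signals. The replicate 1 list held 26941 regions and the replicate 2 list 22704 regions, and by their listings the pooled and replicate lists include background. The signal is the authors' value per region, and signals are set against each other within 1 list only. Rank 1 is the strongest region of a list. Ranks are also set side by side across lists, although the lists differ in their number of regions.

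Of the 10 genes, 5 had a summit in the IDR list, namely lgg-2, sqst-1, atg-18, lgg-1 and bec-1, against 13.8% of all nuclear protein-coding genes. Together these genes held 7 IDR summits, 3 of them at lgg-2. For 4 of the 7 summits the genomic sequence of the 100 bp centred on the summit is shown next, since these are the strongest lgg-2 summit, its intron summit, and the summits of the genes next in signal, sqst-1 and atg-18. The strand is that of the gene, the build is WBcel235 (ce11) from RefSeq, and the summit is base 50 of each window, or base 51 for sqst-1. Capitals mark CANNTG (the E-box core, where N is any base), GAGAGA and AGTTCA, or their reverse complements.
lgg-2, 323 bp upstream: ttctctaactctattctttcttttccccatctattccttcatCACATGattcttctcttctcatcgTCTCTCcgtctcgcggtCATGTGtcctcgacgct
lgg-2, 412 bp downstream: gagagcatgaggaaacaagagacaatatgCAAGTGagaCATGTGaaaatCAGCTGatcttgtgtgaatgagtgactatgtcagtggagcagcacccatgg
sqst-1, 1721 bp upstream: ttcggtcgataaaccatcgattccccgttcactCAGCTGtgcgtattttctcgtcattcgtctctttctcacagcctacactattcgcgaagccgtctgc
atg-18, 249 bp upstream: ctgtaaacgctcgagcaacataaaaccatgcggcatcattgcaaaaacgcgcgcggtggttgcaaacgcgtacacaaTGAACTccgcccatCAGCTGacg
The windows lie at IV:10936176-10936275 (minus strand) and IV:10935441-10935540 (minus strand) for lgg-2, IV:12032511-12032610 (plus strand) for sqst-1 and V:8631526-8631625 (minus strand) for atg-18. None of these windows overlaps an annotated UTR or coding exon.

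The strongest region of the set was at lgg-2. The protein it encodes is one of the 2 worm relatives of yeast Atg8 and acts downstream of LGG-1 in autophagosome maturation. The gene spans IV:10934196-10935903 on the minus strand (WBGene00002981). Its strongest summit lay 323 bp upstream of the 5′ end, between lgg-2 and the divergent gene fic-1, in the region IV:10935953-10936539. It had a pooled signal of 1174 and rank 50, a replicate 1 signal of 781 and rank 40, and a replicate 2 signal of 399 and rank 66. Both replicates thus placed it among their strongest regions, and their summits there were 21 bp apart. When genes were ordered by their strongest region, lgg-2 was 22nd in the pooled list, 20th in replicate 1 and 29th in replicate 2.

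The same interval carried another lgg-2 summit 538 bp upstream, with a pooled signal of 327 and rank 491. Its signal was 98.6 in replicate 1, at rank 1532, and 112 in replicate 2, at rank 702. The third IDR summit was inside the gene, 412 bp downstream of the 5′ end in the region IV:10935430-10935644, with a pooled signal of 285 and rank 621. This base is in intron 1 of the longer transcript, ZK593.6a.1, and 452 bp upstream of the 5′ end of the shorter transcript, ZK593.6b.1. Replicate 1 gave it a signal of 121 and rank 1082 and replicate 2 a signal of 166 and rank 322. Each replicate thus ranked the intron summit above the summit at 538 bp, while the pooled list had them in the opposite order. A further pooled summit, 1179 bp upstream with a signal of 78.9 and rank 4321, was below the IDR list, and both replicates listed it, at rank 10473 and rank 2763.

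Past the 3′ end of lgg-2, outside the window, were 2 further IDR summits, at 2 bp with a signal of 122 and at 208 bp with a signal of 154, at the 3′ end of the convergent gene lsm-7. Together with lgg-1 and sqst-1, lgg-2 was one of 3 of the 10 genes with an IDR summit in the 500 bp past the 3′ end, against 2.62% of all nuclear protein-coding genes. Among the 39 other autophagy genes described below it was 1, or 2.56%, close to the share of all genes. The distance of 500 bp was chosen after the lgg-2 summits had been seen, so lgg-2 counts by construction.

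**Figure D1:**
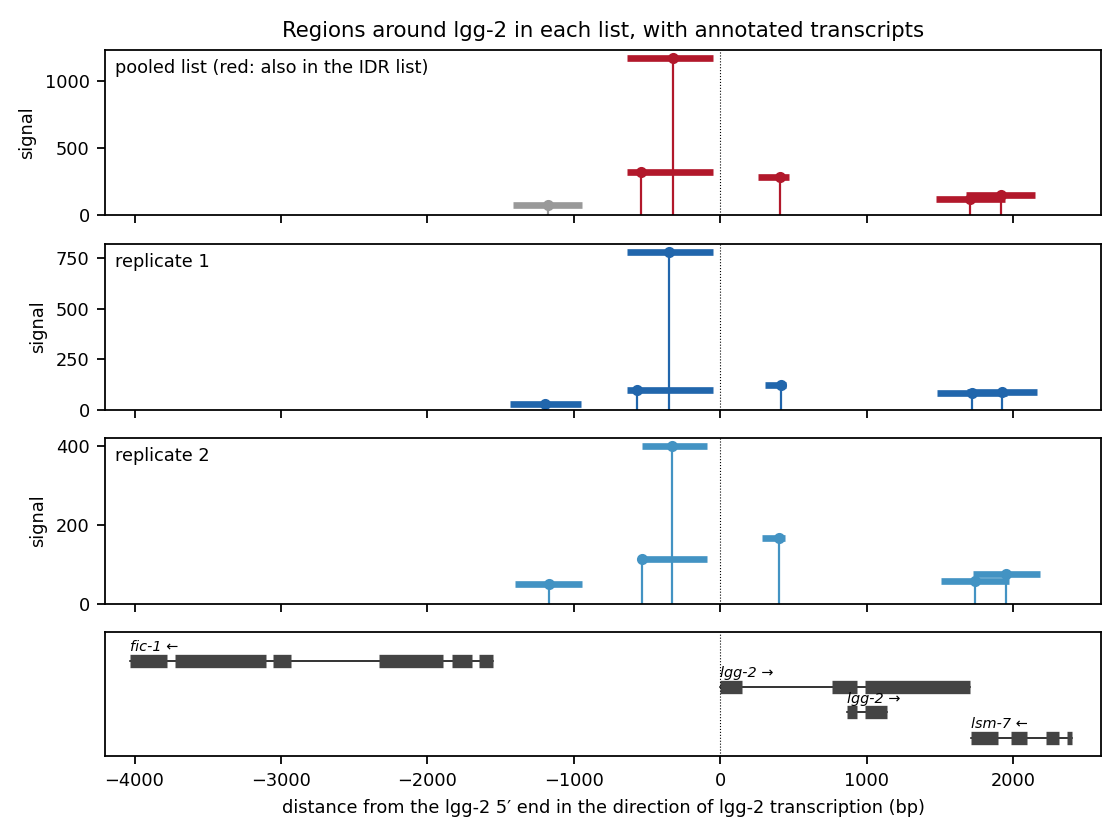
Regions around lgg-2 in the pooled list and in each replicate, with exons below; the x axis is the distance in bp from the lgg-2 5′ end along its transcription, bars are regions, stems stand at summits and their height is the authors' signal on a scale of its own per list. The highest stem lies 323 bp upstream in the pooled list and the same region is highest in replicate 1 and replicate 2, and arrows give the direction of transcription.

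All 3 IDR summits of lgg-2 also lay within 2000 bp upstream of fic-1, which encodes a FIC-domain enzyme that adds AMP to proteins, at 1228 bp, 1013 bp and 1963 bp from its 5′ end. Each was nearer to the 5′ end of lgg-2. The lists cannot tell which gene of the pair a region belongs to. Apart from fic-1, which has the same region, the genes whose strongest IDR region was most like that of lgg-2 in rank over the 3 lists were abts-4, tre-2, tatn-1 and D2023.3. Their ranks were 51, 42 and 60 for abts-4 in the pooled, replicate 1 and replicate 2 lists, and the largest rank difference from lgg-2 was 6. It was 8 for tre-2, a trehalase, 9 for tatn-1, a tyrosine aminotransferase, and 15 for D2023.3.

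The other Atg8-like gene, lgg-1, spans II:6346960-6347719 on the minus strand (WBGene00002980). Its IDR summit lay 891 bp upstream in the region II:6348372-6348847, with a pooled signal of 270 and rank 683. Replicate 1 gave a signal of 164 and rank 647, and replicate 2 a signal of 106 and rank 781. The ranks were close, and the summits of the replicates were 34 bp apart, the widest gap among the 7. The base is intergenic, 597 bp from C32D5.10, and the nearest protein-coding 5′ end is that of lgg-1. A weak pooled summit of signal 57.1 stood in the 5′ UTR, 22 bp downstream of the 5′ end, and each replicate had a summit within 24 bp downstream of that end. So both Atg8-like genes had an upstream region in each of the 4 lists, that of lgg-2 being the stronger in every list.

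The autophagy receptor gene sqst-1, the worm p62, spans IV:12034282-12036891 on the plus strand (WBGene00011737). Its IDR summit was the second strongest of the set, with a pooled signal of 571 and rank 177, and it lay 1721 bp upstream in the region IV:12032377-12032753. In replicate 1 it had a signal of 339 and rank 178, and in replicate 2 a signal of 239 and rank 163. The rank was nearly the same in the 3 lists. The region is also 1290 bp upstream of the 5′ end of T12G3.6, and 407 bp past the 3′ end of mrpl-51, a mitochondrial ribosomal protein gene whose 5′ end is the nearest protein-coding one. Given to the nearest 5′ end, the region would not count for sqst-1. A pooled summit 1513 bp upstream was weaker, with a signal of 76.3 and rank 4542, although replicate 1 ranked its counterpart 753.

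Among the membrane supply genes, atg-18, which encodes a WIPI-like protein that binds phosphoinositides, had an IDR summit and atg-9, which encodes a transmembrane protein of the pathway, had none. The gene atg-18 spans V:8629174-8631327 on the minus strand (WBGene00018294). Its summit was 249 bp upstream in the region V:8631479-8631598, with a pooled signal of 283 and rank 628. The signal was 146 in replicate 1, at rank 786, and 129 in replicate 2, at rank 548. The replicates' summits were 4 bp apart, the closest of the 7, and the base lies between the 5′ end of atg-18 and the 3′ end of oac-29. For atg-9 (V:349385-359658, plus strand, WBGene00020706), the strongest of 10 pooled summits was 188 bp upstream with a signal of 68.9 and rank 5288. The strongest atg-9 summit of replicate 2 was 190 bp upstream with a signal of 34.5, while that of replicate 1 was 55 bp upstream with 33.8.

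The Beclin gene bec-1 spans IV:5661141-5664425 on the minus strand (WBGene00000247) and had the weakest IDR summit of the set. This summit, 1129 bp upstream in the region IV:5665316-5665791, had a pooled signal of 103 and rank 3070, near the end of the list. The nearest protein-coding 5′ end is that of bec-1, but the snoRNA T19E7.29 is nearer, with the summit 616 bp upstream of it. The replicates placed this summit very differently, with a signal of 31.4 and rank 8474 in replicate 1 and a signal of 66.0 and rank 1794 in replicate 2. Of the 3338 nuclear IDR summits, 26, or 0.779%, had a nearest replicate 1 region that ranked as low or lower. In replicate 1 the strongest bec-1 summit was another one, 1984 bp upstream, with a signal of 42.1, in the exon of the noncoding RNA T19E7.25. Ranked by replicate 1 alone, bec-1 had no summit among the 3361 strongest regions.

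**Figure D2:**
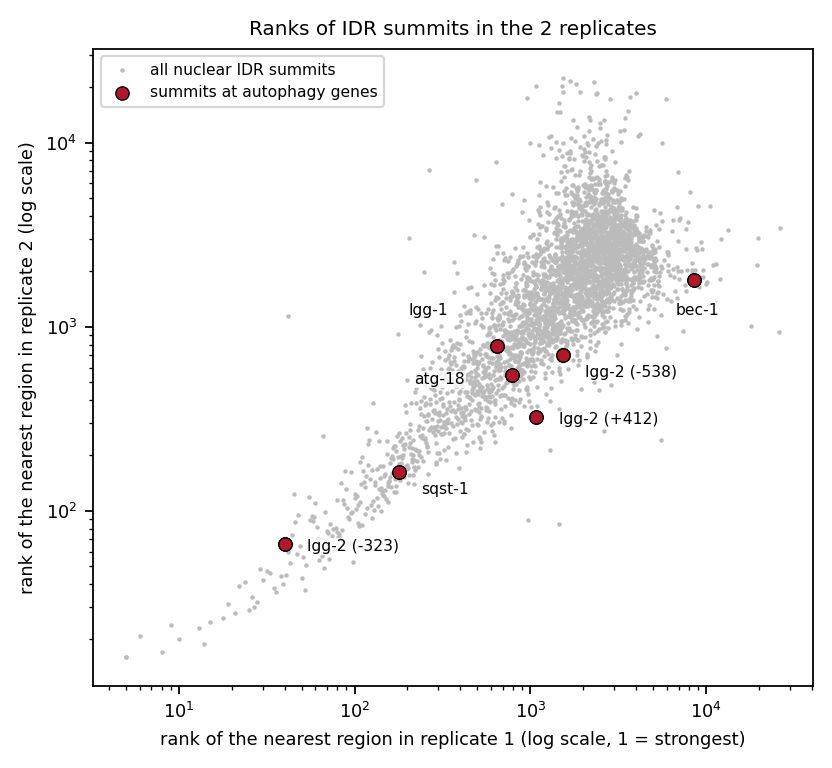
Rank of the nearest region in replicate 1 (x axis, log scale) and in replicate 2 (y axis, log scale) for the 7 IDR summits at the autophagy genes (red) and all 3338 nuclear IDR summits (grey). The strongest lgg-2 summit is at ranks 40 and 66 and that of sqst-1 at 178 and 163, while bec-1 lies off the diagonal at 8474 and 1794.

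The conjugation genes had no IDR summit by the rule. For atg-7, which encodes the E1-like enzyme that activates LGG-1 and LGG-2 (IV:11078682-11081055, minus strand, WBGene00010882), the strongest pooled summit had a signal of 91.7 and rank 3548, just below the lowest IDR signal of 95.4. It was 61 bp upstream, in the 3′ UTR of let-70, the gene of a ubiquitin-conjugating enzyme. Replicate 2 had its counterpart 82 bp upstream with a signal of 52.2 and rank 2565, and replicate 1 had one 75 bp upstream with a signal of 35.8 and rank 6813. The strongest atg-7 summit of replicate 1 was another one, 193 bp downstream in a coding exon, with a signal of 41.9 and rank 5267. The 2000 bp limit left out a stronger region: an IDR summit 2012 bp upstream of atg-7, 12 bp past the limit, had a pooled signal of 412 and rank 299. That region, IV:11082911-11083163, had rank 322 in replicate 1 and 305 in replicate 2, and its summit is 814 bp upstream of let-70, 668 bp upstream of klc-1 and 80 bp from the snoRNA M7.15. Just inside the limit, bec-1 had a pooled summit at 1989 bp with a signal of 70.3.

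For atg-16.2, which encodes a scaffold of the conjugation complex (II:6450889-6453391, minus strand, WBGene00019427), the single pooled summit was 191 bp upstream with a signal of 39.5 and rank 12701. Replicate 1 had a summit 222 bp upstream with a signal of 27.4, and replicate 2 listed none in the window. It was the only one of the 10 genes without a summit in both replicate lists, which 44.4% of all genes had. The count of 9 of 10 is set by lists that hold background.

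The kinase gene unc-51, the worm ULK1 (V:19995986-20004485, minus strand, WBGene00006786), had 13 pooled summits, the most of the 10 genes, and none in the IDR list. The strongest, 1491 bp upstream, had a signal of 56.2 and rank 7223. Its counterpart had a signal of 30.1 and rank 9021 in replicate 1, and 30.2 and rank 6045 in replicate 2. The tether gene epg-5 (II:6598344-6609365, minus strand, WBGene00016968) had 5, of which the strongest was in an intron 8176 bp downstream of the 5′ end, with a signal of 57.0 and rank 7078. Another, 7977 bp downstream with a signal of 23.1, was in a coding exon of vps-33.2, which overlaps the epg-5 body. Replicate 1 had its strongest epg-5 summit 8166 bp downstream, while replicate 2 had it 11016 bp downstream, in the 3′ UTR. The longest genes of the set, unc-51, atg-9 and epg-5, thus had several weak summits each and no IDR summit.

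**Figure D3:**
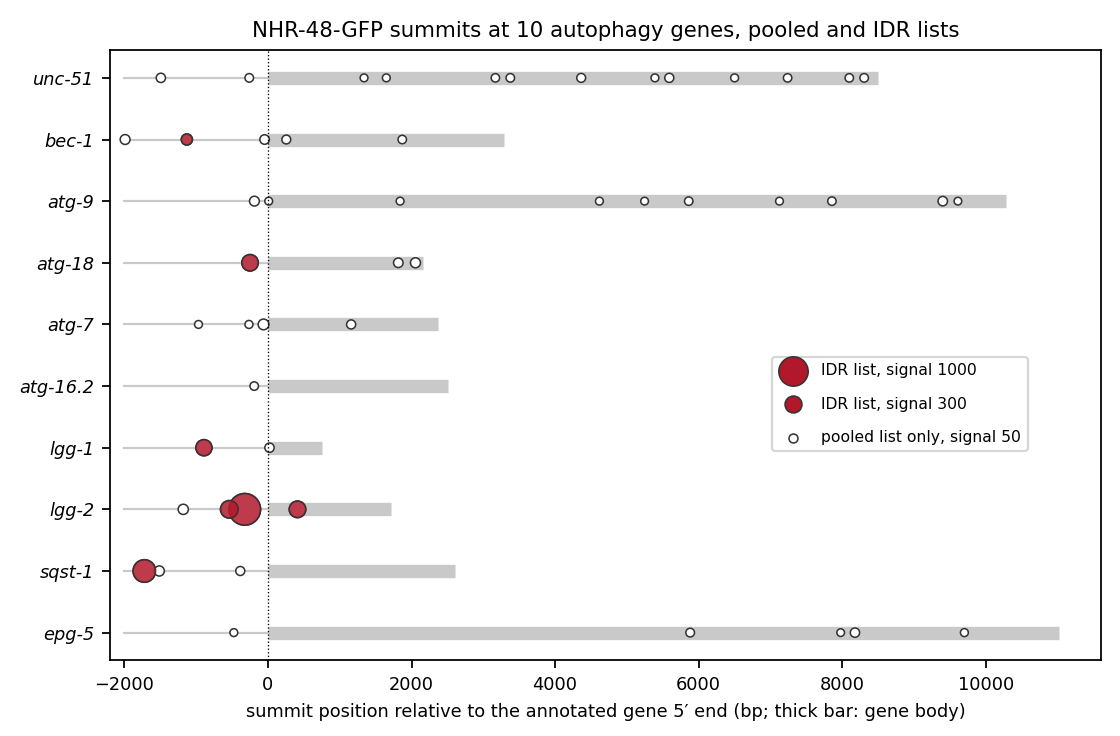
Summits at the 10 genes in the pooled list, by position relative to the gene's 5′ end in bp (x axis) with genes in rows; thick bars are gene bodies, thin lines the upstream window, and circle area grows with the authors' signal. Red circles are also in the IDR list: 6 of the 7 lie upstream of the 5′ end and 1 in the lgg-2 body, and the long genes unc-51, atg-9 and epg-5 carry only small open circles.

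**Figure D4:**
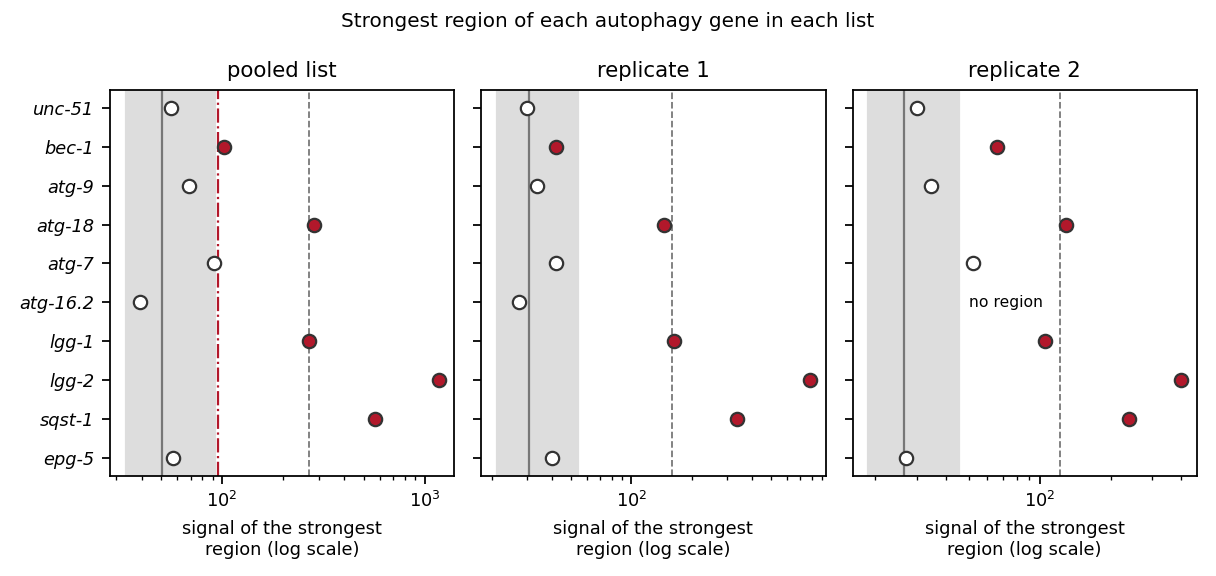
Signal of the strongest region of each gene in the pooled, replicate 1 and replicate 2 lists (log scale); red points are genes with an IDR summit, the grey band spans the 25th to 75th percentile of all genes with a region in that list, the solid line is their median, the dashed line their 95th percentile and the red line the lowest IDR signal. The points of lgg-2 and sqst-1 lie right of the dashed line in each panel, and atg-16.2 has no region in replicate 2.

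Over the 10 genes the median of the strongest pooled signal was 97.2, against 50.3 over the 11440 of all genes with a pooled region. The 95th percentile over those genes was 269.8, and lgg-2, sqst-1 and atg-18 lay above it, with lgg-1 just below at 269.6. In the pooled list all 10 genes had a summit, against 57.3% of all genes. In the replicate 1 list all 10 had one, against 57.8%, and in the replicate 2 list 9 had one, against 52%. Taking the 3361 regions of highest signal in each replicate, 4 of the 10 genes had such a summit in both, namely lgg-1, lgg-2, sqst-1 and atg-18, against 11.2% of all genes.

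The rule gives longer genes more chances of a summit. The window had a median of 4556 bp over the 10 genes and 4027 bp over all genes. Among windows of 2000 to 3000 bp, lgg-1 had an IDR summit, against 10.5% of all genes, and among those of 3000 to 5000 bp 3 of 5 members had one, against 11.2%. Among windows of 5000 to 8000 bp bec-1 had one, against 17.8%, and above 8000 bp none of unc-51, atg-9 and epg-5 did, against 22.7%. The genes of the longest windows thus had no IDR summit. Neither did atg-7 and atg-16.2, with windows of 4374 bp and 4503 bp.

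The pooled list placed 50 summits at the 10 genes, of which 24, or 48.0%, had a summit of both replicates within 100 bp, against 33.6% of all nuclear pooled summits. All 4 lgg-2 summits and both lgg-1 summits met this, whereas 5 of 13 did at unc-51, 3 of 10 at atg-9 and 0 of 1 at atg-16.2. At the 7 IDR summits the nearest replicate 1 summit was 3 to 28 bp away and the nearest replicate 2 summit 4 to 42 bp away. The medians were 24 bp and 16 bp, against 10 bp and 15 bp over all nuclear IDR summits.

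The 7 IDR summits were upstream in 6 cases, at a median of 714.5 bp, against 67.6% upstream with a median of 544 bp over all gene and summit pairs. The GC content of the 100 bp around the summit had a median of 45% at the 7 summits and 44% at all nuclear IDR summits. These summit windows were read for short motifs on both strands. CACGTG, the core bound by the autophagy regulator HLH-30, was in none of the 7 windows, against 7.91% of all nuclear IDR windows. The longer TCACGTGA was in none, against 1.14%. TGATAA, which intestinal zinc-finger factors bind, was in none, against 20.3%. Of the nuclear receptor half-site motifs, AGTGCA was in none, against 6.14%, AGGTCA was in none, against 3.45%, and AGTTCA was in 1, that of atg-18, against 5.27%. GAGAGA was in 1, that of the strongest lgg-2 summit, against 21.9%.

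Other E-box letters were looked up only after these windows had been read, so their counts are a description of what was seen. CANNTG was in 5 of the 7 windows, against 43.0% of all, with 3 matches at the lgg-2 intron summit, 2 at its strongest summit and 1 each at atg-18, lgg-1 and sqst-1. CACATG or its reverse complement was in 3, against 7.40%, and CAGCTG was in 3, against 3.39%. CAGCTG began at base 50 of the lgg-2 intron window, which is the summit base, and at base 34 of the sqst-1 window, base 92 of the atg-18 window. These letters overlap CANNTG by construction. The remaining windows are shown for comparison, lgg-1 with 1 match and the lgg-2 summit at 538 bp and bec-1 with none.
lgg-1, 891 bp upstream: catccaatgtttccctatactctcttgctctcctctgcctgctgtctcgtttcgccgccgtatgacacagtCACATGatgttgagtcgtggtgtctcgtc
lgg-2, 538 bp upstream: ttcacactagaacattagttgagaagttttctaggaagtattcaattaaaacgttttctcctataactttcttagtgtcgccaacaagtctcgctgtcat
bec-1, 1129 bp upstream: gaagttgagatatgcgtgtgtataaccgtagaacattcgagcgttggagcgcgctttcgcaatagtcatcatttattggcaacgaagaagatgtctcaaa
These lie at II:6348560-6348659 for lgg-1, IV:10936391-10936490 for lgg-2 and IV:5665504-5665603 for bec-1, all on the minus strand and with the summit at base 50.

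The other 39 genes of a list of autophagy genes were scored by the same rule. An IDR summit was found at 5 of the 10 genes above, at 11 of the 39 others, or 28.2%, and at 13.8% of all genes. The window had a median of 4728 bp over the others and 4027 bp over all genes. Of the 11, epg-9, atg-2, hlh-30, aak-2 and rsks-1 have windows above 8000 bp, where the share of all genes was 22.7%. The strongest regions of the 39 others had a median pooled signal of 52.8 over the 33 with a region. In the initiation group, with unc-51 at 56.2, the strongest was epg-9, the worm ATG101, at 705 and rank 127, in an intron 1025 bp downstream of the 5′ end, and epg-7, a scaffold related to FIP200, had 360 at 151 bp upstream. In the nucleation group, beside bec-1 at 103, its partner epg-8, which acts as ATG14, had 106 at 232 bp upstream. The tally was 2 of 4 genes in each of these groups, unc-51 and bec-1 included. Without an IDR summit were atg-13, with a signal of 47.7, and vps-15, with 44.5, and vps-34 had no pooled region.

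In the membrane supply group, beside atg-18 at 283, its lipid-transfer partner atg-2 had 200 at 1747 bp upstream and 132 at 662 bp downstream. The tally of that group was 2 of 6 genes, atg-18 included, against 13.8% of all genes. Of the 9 conjugation genes, which include atg-7, atg-16.2 and lgg-3, the gene of the ubiquitin-like ATG12, 0 had an IDR summit. With 13.8% of all genes having one, a count this low in so few genes shows nothing particular to that group. The pooled signal of lgg-3 was 38.8. In the cargo receptor group, sqst-1 at 571 was followed by the mitophagy receptor gene dct-1 at 166, 1944 bp upstream and so near the 2000 bp limit. The paternal mitochondria receptor gene allo-1 had 112 at 297 bp upstream. These were 3 of 8 genes of the group, sqst-1 included. In the fusion group, where epg-5 had 57.0, the single IDR summit was that of the small GTPase gene rab-7 at 182, 729 bp upstream and shared with mex-1 and W03C9.5.

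Of the regulators, which hold none of the 10 genes, 4 of 8 had an IDR summit, against 13.8% of all genes. Of these, hlh-30, aak-2 and rsks-1 have windows above 8000 bp, where the share of all genes was 22.7%. The TORC1 activator gene rheb-1 had 375 at 270 bp upstream, shared with spk-1, and 159 in an intron shared with spk-1 and F54C8.7. The AMP-activated kinase gene aak-2 had 279 in an intron, the S6 kinase gene rsks-1 had 156, and hlh-30, which encodes the TFEB-like transcription factor of autophagy genes, had 4 summits from 114 to 205 in a window of 22159 bp. No gene in these groups reached the pooled signal of lgg-2. The genes vps-34, atg-4.1, atg-4.2, atg-10, sepa-1 and pink-1 had no pooled region by the rule.

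**Figure D5:**
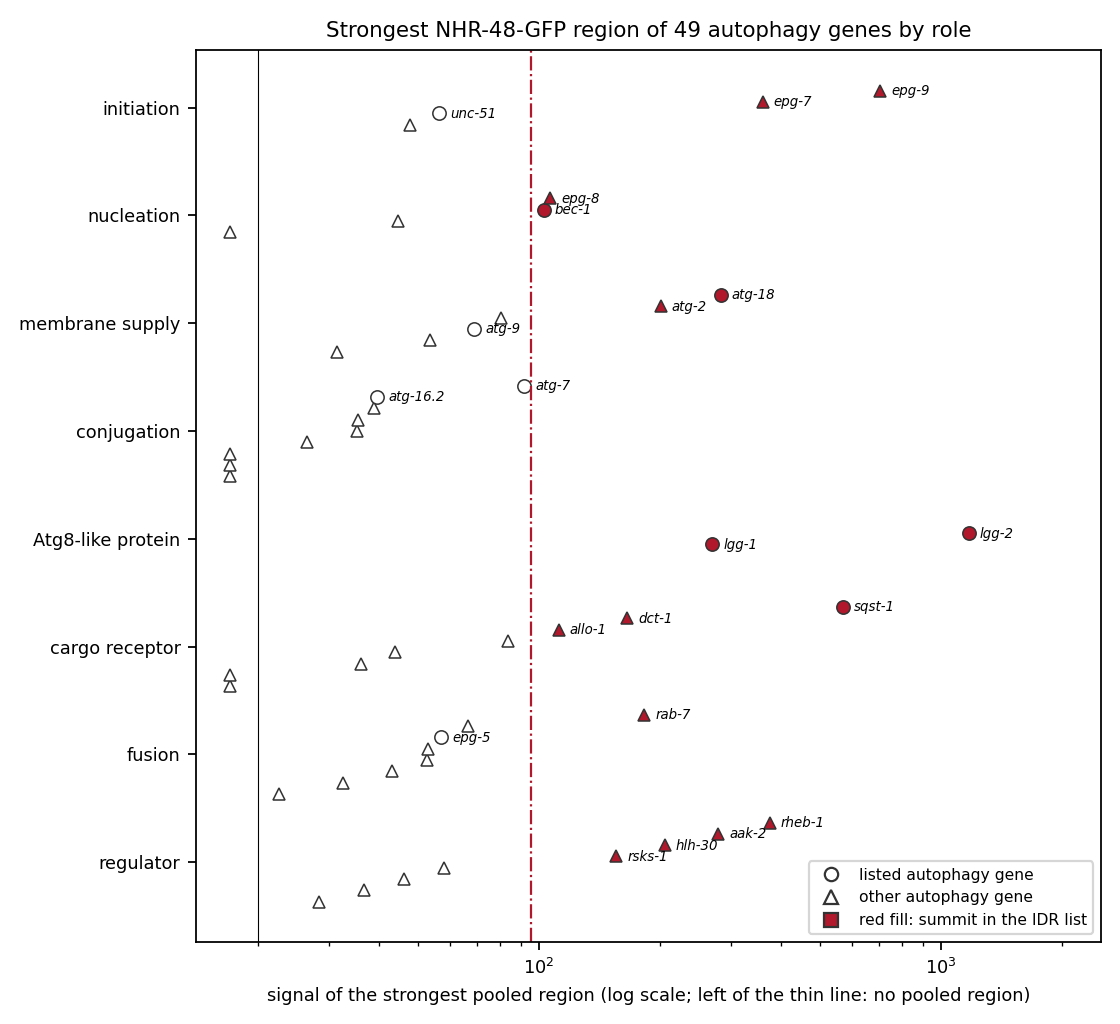
Signal of the strongest pooled region (x axis, log scale) of the 10 genes (circles) and 39 other autophagy genes (triangles) by role; red fill marks an IDR summit, the dash-dotted line is the lowest IDR signal of 95.4, and points left of the thin line have no pooled region. Red points are 2 of 4 initiation, 2 of 4 nucleation, 2 of 6 membrane supply and both Atg8-like genes. They are also 3 of 8 cargo receptor, 1 of 8 fusion and 4 of 8 regulator genes. Of the conjugation genes, lgg-3 among them, 0 of 9 are red, and the share of all genes was 13.8%.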

How the data were processed

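The authors deposited narrowPeak lists on ce11, which were used, and on ce10, which were not. Column 7, the signal of each region on the caller's scale, and column 10, the summit offset in bp from the region's start, are the authors' deposited values. Per the deposited file listings, the replicate and pooled lists hold peaks with background as input for IDR, the irreproducible discovery rate procedure, which compares ranks between replicates. No aligner, peak caller or IDR threshold is named in the sources used here. These lists hold no read counts, so depth is unknown and the number of regions limits the precision.

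Summits were matched to Ensembl release 115 gene models (WBcel235) with Python 3.11.15, numpy 2.4.6 and pandas 2.3.3, and sequences were read with Biopython 1.88. Ranks include mitochondrial regions, and windows and shares are nuclear. With 1 group no test between groups was possible.

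Genes named beyond the 10 were the other autophagy genes with an IDR summit, genes that share a member's IDR summit, the 5 genes most like lgg-2 by rank, and neighbours of summits. Genes without a pooled region, atg-13, vps-15, lgg-3, the convergent gene lsm-7 and the later motifs were named after their values were seen. The members and lists were chosen with earlier results of these data known.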

Additional observations from a re-analysis of the deposited data

How the results depend on the processing

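Of the 10 genes, 5 had an IDR summit; this became 3 with a 1000 bp upstream window or with promoters only (1000 bp upstream to 200 bp downstream of a transcript's 5′ end), which lost bec-1 and sqst-1 (11.1% of all genes at 1000 bp), and 10 with all pooled regions. For the other autophagy genes the count of 11 became 6 with promoters only and 33 with all pooled regions. For all genes the share of 13.8% became 9.01% with promoters only, 7.2% with the stronger 50% of IDR regions and 57.3% with all pooled regions. With the stronger 50% of IDR regions, 4 of the 10 genes had a summit, with bec-1 lost, and 9 of the other autophagy genes. The count in both replicates, 9, became 4 with the strongest regions of each replicate. Ranking by 1 replicate alone gave 4 to 6 of the 10 genes, 10 to 11 of the others, 13.6% to 13.8% of all genes and rank 40 to 66 for lgg-2. Without replicate 2, bec-1 was lost, and without replicate 1, atg-7 was gained. Windows with a motif of the main list numbered 2 of 7, against 53.4% of all nuclear IDR windows, and became 5 with 200 bp, against 74.7%, a width added after the data were seen. A 5000 bp window gave 6 genes, against 20% of all genes, and any overlap 6, against 15%, both with atg-7 gained. Giving each summit to 1 gene gave 4, against 9.84%, with sqst-1 lost. No paired analysis was possible because the replicates form 1 group. Depth is unknown, and the lists carry no read counts.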
